A study of Mus musculus x Mus spretus with 8 samples.

Results

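The bins described here are the 2 Mb windows of mouse chromosomes 3, 5, 6 and 19, counted from position 1 of mm10, in which RNA of the 2 parental genomes was compared across 8 RNA-seq libraries. These chromosomes were chosen because reads of genome 2 were depleted on them in at least 1 knockout-labelled library, so the shares below are descriptions and are not tested. Of 258 bins that hold a gene, 224 had at least 100 allele-assigned reads in every library: 68 of 79 on chromosome 3, 64 of 75 on chromosome 5, 64 of 74 on chromosome 6 and 28 of 30 on chromosome 19. The same filter kept 1118 of 1303 bins over all chromosomes. The 224 bins hold 9616 genes, each placed by its start. Genes whose 2 allele counts summed to more than their total count were left out (60 on these chromosomes).

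The cells are Patski cells, a female fibroblast line from a C57BL/6 by SPRET/EiJ cross (Mus musculus and Mus spretus). There are 4 groups of 2 libraries: wild type (WT), Stc1 -/-, Pygo1 -/- and Rlim -/-, as labelled. The series describes the mutations as homozygous and the 2 libraries of a label as separate mutants, so each knockout library may stand for a single clone. All groups share the parental line, its hybrid genome and the same culture medium. Nothing says how the WT libraries differ from each other, and p-values measure only the spread between these samples. No label ties genome 1 to either parent.

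In a hybrid of 2 mouse species, sequence differences let reads be assigned to the maternal or the paternal copy of a gene, so each autosomal gene reports on both copies at once. Most autosomal genes use both copies, whereas imprinted genes use the copy of 1 parent. Long-lived cell lines often carry gained, lost or rearranged chromosomes, and a run of neighbouring genes that shifts together in allele share is one of the readouts used to find such segments. The share of RNA reads does not count chromosome copies: expression of a copy can also be reduced without a change in DNA. No DNA data were analysed here.

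Total counts per library ran from 73128996 to 81500061, and 50.64 to 52.64% of them carried a genome. The 4 chromosomes held 8872560 to 10113884 allele reads per library, with a median of 13225 to 15727 reads per bin. The 95% Wilson interval of a bin's share had a median half-width of 0.19 to 0.68 points and reached 7.93 points at most, counting error only. RNA of the 3 targeted genes was not lower in both libraries of its own label. Stc1 stood at 3.91 and 3.15 CPM (counts scaled to library size) in WT and under its label at 3.64 and 67.7 CPM. Pygo1 stood at 2.53 and 2.45 CPM in WT against 2.51 and 0.674 CPM under its label, and Rlim at 58.2 and 51.5 CPM against 71.6 and 64.2 CPM. The groups are therefore called by their labels. Of the fibroblast markers, the filament gene Vim was high (833 to 1280 CPM). The collagen gene Col1a1 had 2.07 to 8.19 CPM and the receptor gene Pdgfra 2.04 to 13.2 CPM. Pdgfra stood at 3.5 and 3.61 CPM in WT and was highest under Rlim, at 13.2 and 12.1 CPM. The collagen genes Col1a2 and Col3a1, the receptor gene Pdgfrb and the surface marker Thy1 stayed under 1 CPM in every library. Among markers of other cell types, Cdh1 of epithelia moved with the groups: 9.68 and 8.93 CPM in WT, 20 and 6.3 CPM under Stc1, and 0.202 to 0.514 CPM in the 4 Pygo1- and Rlim-labelled libraries, those with depleted chromosomes. Its part in the results was not tested. Epcam and Krt18, also of epithelia, were at or under 2.67 and 0.326 CPM, and the T cell gene Cd3e had no reads.

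Reads of genome 1 dominated most bins of the Pygo1-labelled libraries on 3 or 4 of the chromosomes, and those of the Rlim-labelled libraries on chromosome 6. A genome 1 share of 90% or more, called near-absence of genome 2 here, was found in 25 of 224 bins in each WT library (11.2%). The Stc1-labelled libraries had 24 and 23 such bins (10.7 and 10.3%). The Rlim-labelled libraries had 74 and 72 (33.0 and 32.1%), and the Pygo1-labelled libraries 125 and 197 (55.8 and 87.9%). Over all 1118 bins of the genome the same share was 7.25% in each WT library, 8.68 and 7.33% for Stc1, 19.2 and 22.8% for Pygo1, and 11.9 and 11.6% for Rlim. Because the chromosomes were chosen on this measure, the difference from the genome is not a result. A mean share of the 2 libraries at least 10 points above WT, without overlap between the pairs, was found in 182 of 224 bins under Pygo1 (81.2%). The same held for 61 bins under Rlim (27.2%) and 1 under Stc1. Over the genome it held for 21.8% of bins under Pygo1, 12.5% under Rlim and 0.805% under Stc1. In the first Pygo1-labelled library alone, 58 bins rose by 10 to 20 points and 73 by over 20. In the second the numbers were 60 and 134.

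The depleted chromosomes differed between labels and, for chromosome 5, between the 2 libraries of 1 label. On chromosome 3 the median bin share was 80.51 and 80.24% in WT, 98.64 and 98.73% in the Pygo1-labelled libraries, and between 73.35 and 76.25% in the other 4. The order was therefore Pygo1 above WT above the rest, with no overlap between the 3 sets of libraries in these medians. On chromosome 6 the median was 70.37 and 70.61% in WT, 94.33 and 97.94% for Pygo1, and 97.51 and 97.37% for Rlim. The second Stc1-labelled library was the lowest there at 59.29%, while the first stood at 70.98%, next to WT. On chromosome 19 only the Pygo1-labelled libraries stood apart, at 95.7 and 97.43% against 76.47 and 76.65% in WT. On chromosome 5 the second Pygo1-labelled library had a median of 97.88%, and the first had 76.8%, 3 to 4 points above WT at 73.44 and 73.25%. Near-absence on chromosome 5 was counted in 59 of 64 bins of that second library and in 1 or 2 bins of every other library.

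**Figure D1:**
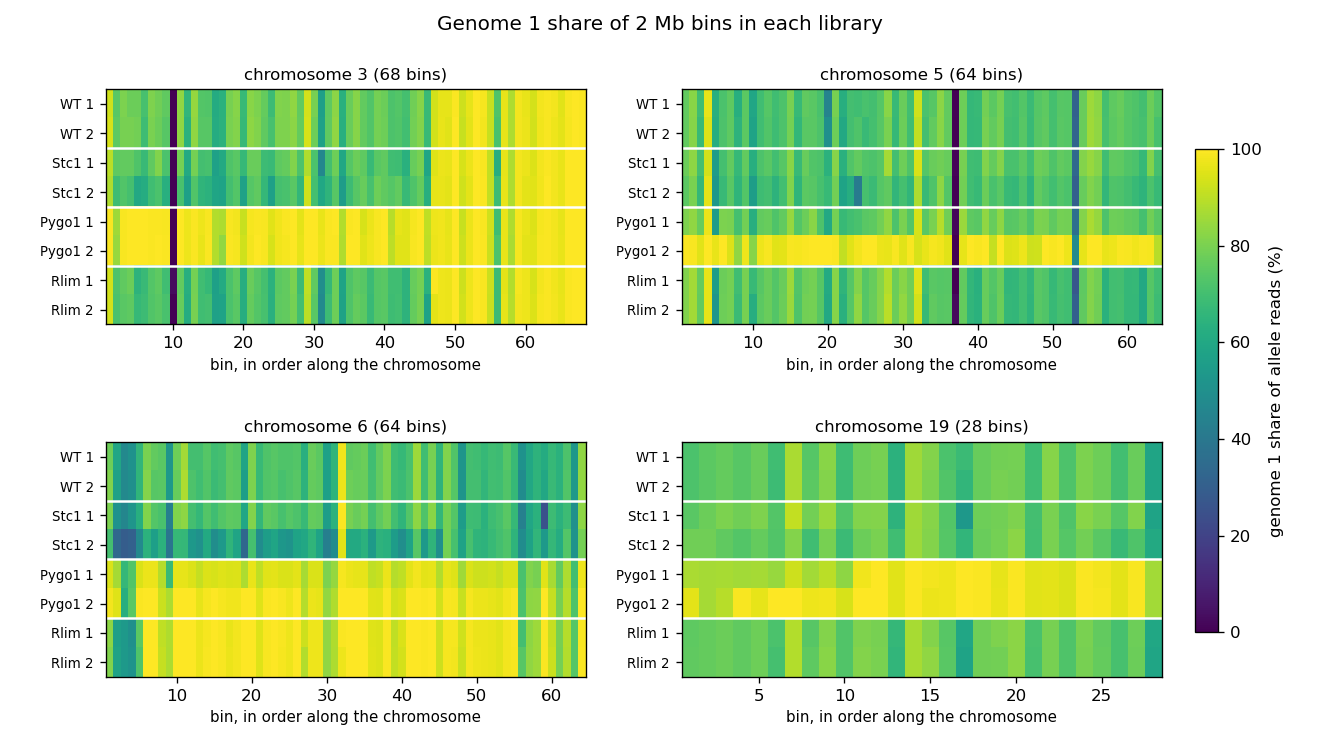
Genome 1 share of allele reads (colour, 0 to 100%) in the 224 bins of chromosomes 3, 5, 6 and 19 (columns, in order along each chromosome) for the 8 libraries (rows). Both Pygo1-labelled rows are near 100% on chromosome 3, only the second on chromosome 5, and on chromosome 6 both Rlim-labelled rows change to near 100% at 12 Mb; the WT rows are high on the distal part of chromosome 3 as well.

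Chromosome 3 needed 2 descriptions, because WT itself had little genome 2 RNA on its distal part. Of the 25 near-absent bins of each WT library, 22 lie on chromosome 3. The step was placed with a piecewise-constant fit over single genes with at least 50 allele reads, which was added after the data were seen. In both WT libraries it fell in a 68 kb gap between Prpf38b (108902805 to 108911727), a splicing factor gene, and Fam102b (108970997 to 109027607). The median share of genes went from 76.38 to 98.92% in the first WT library and from 75.84 to 98.77% in the second, with 423 genes before the step and 145 after it. At the step itself Prpf38b had 77.2 and 75.5% in WT, and Fam102b 92.4 and 92.7%. The 6 knockout-labelled libraries had the same order at this pair of genes: 70.8 to 99.8% for Prpf38b and 88.2 to 100% for Fam102b.

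The Pygo1-labelled libraries lacked most genome 2 RNA before that WT step. Prpf38b stood at 99.8% in each, against 77.2% or less in the other 6 libraries. On the distal side the difference from WT could only be small for most genes, since WT was already near 100%. The summed share over that side was 95.13 and 95.29% under Pygo1, against 94.31 and 93.96% in WT. Over its 21 genes with a WT share of 20 to 90%, genome 2 reads under Pygo1 had median log2 differences from WT of 0.301 and 0.293. The bin fit placed the end of the difference at 112 Mb in both libraries: the mean difference from WT was 20.41 and 20.35 points over the 46 bins before it, and 0.51 and 0.68 points over the 22 bins after it. The gene fit placed it in the 5.63 Mb between C130013H08Rik and A930005H10Rik, with median differences over genes of 22.69 and 22.63 points over 381 genes before, and 1.48 and 1.88 points over 19 genes after. C130013H08Rik overlaps Prmt6 (110246109 to 110250998), an arginine methyltransferase gene, so its reads are uncertain. The bin of Prmt6, 110 to 112 Mb, had 67.7 and 67.6% in WT and 90.3 and 90% in the Pygo1-labelled libraries, so it stood below its neighbours in all of these libraries. The bin before it, 108 to 110 Mb, had 99.8% in both Pygo1-labelled libraries and 81.7 and 81.6% in WT.

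Chromosome 6 showed a sharp step in both Rlim-labelled libraries near its proximal end. The bin at 10 to 12 Mb, where Ndufa4 of the respiratory chain has the most reads, had a share of 74.9% (interval 73.4 to 76.3) and 72.3% (70.8 to 73.8) in the 2 libraries, against 65.7 and 65.2% in WT. The next bin, 12 to 14 Mb, had 99.8% (99.6 to 99.9) and 99.9%, against 79.7 and 81.6% in WT. The mean difference from WT was 3.61 and 3.21 points over the 5 bins before 12 Mb and 24.32 and 24.29 points over the 59 bins after it. Among single genes, Phf14 (11907809 to 12081205), which encodes a PHD finger protein, had 75.4 and 75% under the Rlim label. Tmem106b (13069759 to 13089269), a lysosomal membrane protein gene, had 100% in both, against 78.4 and 81% in WT. The step lies between these 2 genes by their shares. The gene fit, which weighs all genes with a WT share of 20 to 90%, placed it later, in the 242 kb between Bmt2 and 2610001J05Rik. Bmt2 already stood at 100% in both libraries, against 85.9 and 86.2% in WT, so the gene fit lies later than the change in the shares of the flanking genes.

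In the Pygo1-labelled libraries chromosome 6 was depleted from its first bins, with no break of the same kind, and the 2 libraries differed in depth of the depletion. At 14 to 16 Mb, the bin of Mdfic, a regulator of transcription factor import, the first library had 97.2% and the second 100%. At 10 to 12 Mb they had 94.5 and 99.6%. The lowest bin was the same in both: 6 to 8 Mb, with the asparagine synthetase gene Asns, had 66.6 and 62.9%, against 46.9% in the first WT library. The next bin, 8 to 10 Mb, led by the secretory granule gene Ica1, had 72.9 and 74.6% against 50.8 and 49.8% in WT. The bin with the most allele reads on the chromosome, 48 to 50 Mb with the membrane protein gene Tmem176b, had 95.3% in the first library and 99.2% in the second. It had 99.1% in both Rlim-labelled libraries.

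The second Stc1-labelled library went the other way on chromosome 6. Its genes had a median share difference from WT of -16.05 points up to Edem1 (108828641 to 108859356) and of -1.68 points from Lmcd1 (112273758 to 112330425) on, over 324 and 183 genes, with a gap of 3.45 Mb between them. Edem1, of the degradation of misfolded proteins, had 53.9 and 50.6% in WT and 37.2% in this library. The first Stc1-labelled library had 48.9%. Genome 2 was therefore a larger part of the RNA in that stretch in 1 of the 2 Stc1-labelled libraries, the opposite of the depletion seen under the other labels. The same library had smaller share breaks on chromosomes 3 and 19. Its median difference went from -8.22 to -1.46 points between S100a16 and S100a6 (90.61 Mb) on chromosome 3. On chromosome 19 it went from 6.58 to 0.06 points between Gm31166 and Ap5b1 (5.57 Mb). Both returned under the other read minimums and the doubled penalty.

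Chromosome 19 held 3 steps in the Pygo1-labelled libraries, and the 2 libraries did not share them. In the first library the median difference from WT was 11.60 points over 208 genes up to Klf9 (23141226 to 23168134), a zinc finger factor gene, and 22.96 points over 182 genes from Smc5 (23206451 to 23273897), which acts in DNA repair. The gap is 65 kb. Klf9 had 92.5% there and Smc5 99.9%, against 82.5 and 77.4% in the first WT library. The proximal stretch of this library was thus raised, and 9 of its 10 bins before 22 Mb stayed under 90%: 4 to 6 Mb had 86.6% and 8 to 10 Mb, the bin of the ferritin gene Fth1, had 86.2%, against 74.7 and 74% in the first WT library. The exception, 14 to 16 Mb, had 92.6% against 87.4%.

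The second library had a stretch of lesser depletion enclosed by 2 steps. Its median difference was 27.71 points over 32 genes up to Kdm2a (4314419 to 4398285), a histone demethylase gene, then 8.08 points over 89 genes, then 22.38 points over 269 genes from Ppp1r14b (6974968 to 6977324) on. Kdm2a had 99.6% and its neighbour Rhod (4425459 to 4439432), a small GTPase gene, 72.4%, against 58.1 and 59.7% for Rhod in WT. At the other end Plcb3 (6952325 to 6976470) had 84% and Ppp1r14b 99.8%. These 2 genes overlap, their starts are 23 kb apart, and the strand setting is not given, so reads in the overlap are uncertain. The bin at 4 to 6 Mb, which has the most allele reads on the chromosome (698849 to 922826 per library), had 86.6% in each Pygo1-labelled library. The bin sums did not call any of these 3 steps.

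On chromosome 5 the second Pygo1-labelled library had no break: it was raised along the whole chromosome, with 92.3% in the bin with the most reads, 114 to 116 Mb, and 99% at 76 to 78 Mb. The Rlim-labelled libraries had a small step there. In the first library the median difference from WT was 5.20 points up to Igfbp7 and -4.09 points from Cenpc1 (86012024 to 86065583) on, over 239 and 460 genes. In the second library the values beside this gap were 8.94 and -3.95 points, and the fit added a step between Wdr19 and Rfc1 near 65 Mb, from 4.74 to 8.94 points. Igfbp7 (77349240 to 77408041), which encodes a secreted growth factor binding protein, had 62.9 and 62.8% in WT and 72.9 and 73% under the Rlim label. Cenpc1, of the centromere, had 72.1 and 70% in WT and 70.9 and 68.2% under the Rlim label, within the range of the WT pair or just below it.

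The gene fit gave 20 share breaks over the 8 libraries and 4 chromosomes, the smallest with steps just above its limit of 4 points. Of these, 19 returned with 20 allele reads as the minimum, 18 with 100 reads and 12 with the penalty doubled. A WT step near the end of chromosome 19, between Pdzd8 and Emx2, from 75.84 to 57.66% and from 75.81 to 55.19%, rested on 12 genes and was lost at 100 reads and at the doubled penalty. The Rlim step of chromosome 6 was lost at the doubled penalty as well; 19 genes lie before it. The breaks of Klf9 and Smc5, of Kdm2a and Rhod, of Plcb3 and Ppp1r14b and of Edem1 and Lmcd1 returned under all 3 settings.

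Single genes can decide a bin. In 88 of the 224 bins 1 gene held over 50% of the total counts, and in 33 bins over 80%. Predicted pseudogenes made the extreme cases. Gm10259 held 97.9% of the allele reads of the bin at 24 to 26 Mb of chromosome 3, whose share was 0.0 and 0.2% in WT and 0.0% in both Pygo1-labelled libraries. Gm7993 held 99.8% of the bin at 94 to 96 Mb of chromosome 5, with 0.7 and 0.4% in WT. Reads of such near copies may come from other loci, and the WT breaks that the bin fit placed at 24 and 30 Mb of chromosome 3 and at 94 and 100 Mb of chromosome 5 come from these single bins. The bins just inside the read limit had 108, 112 and 153 allele reads in their lowest library, and those just outside had 97, 84 and 68.

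RNA levels of the bins were compared with WT in edgeR on summed total counts of all bins of the genome, with a call at a Benjamini-Hochberg adjusted p under 0.05. On the 4 chromosomes 248 bins were tested, and 1 was called for Stc1, 8 for Pygo1 and 12 for Rlim. Over all 1227 bins tested the share called was 0.407, 2.36 and 1.71% in the same order. The Stc1 call fell. Of the 8 Pygo1 calls 5 rose and 3 fell, and of the 12 Rlim calls 8 rose and 4 fell. Over all bins 0.244% rose and 0.163% fell under Stc1, 1.22 and 1.14% under Pygo1, and 0.815 and 0.896% under Rlim. At an unadjusted p under 0.05 the counts on the 4 chromosomes were 29, 54 and 64. Without either WT library, or without either Rlim-labelled library, none of the Pygo1 or Rlim bins passed in edgeR, and without either Stc1-labelled library all 8 and 12 passed. Without the first or second Pygo1-labelled library, 2 and 3 of the 8 Pygo1 bins passed. With the largest gene of each bin left out, 3 of the 8 Pygo1 bins and 7 of 11 Rlim bins passed.

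The bins that fell under the Pygo1 and Rlim labels lie on chromosome 6, apart from 1 thin bin. The bin at 54 to 56 Mb had 5720 and 6080 CPM in WT, 1870 and 1820 CPM under Pygo1 and 2300 and 2440 CPM under Rlim. The Stc1-labelled libraries, at 3090 and 1970 CPM, were also below WT, so no knockout-labelled library reached the WT level. The log2 change was -1.64 ± 0.21 (SE, n = 2 against 2, edgeR adjusted p = 0.0346) for Pygo1 and -1.25 ± 0.21 (adjusted p = 0.0463) for Rlim. Aqp1 (55336432 to 55348555), the water channel of many epithelia and vessels, held 87% of that bin. Its own level was 5130 and 5490 CPM in WT, 1550 and 1450 CPM under Pygo1 and 1920 and 2060 CPM under Rlim, and it fell under both labels (log2 change -1.81 ± 0.22 and -1.4 ± 0.22). Its genome 1 share was 73.3 and 73.2% in WT, 96 and 99.8% under Pygo1 and 99.8% in both Rlim-labelled libraries. In the second Stc1-labelled library Aqp1 stood at 1720 CPM with a share of 51.3%. Its genome 2 reads numbered 44335 in that library, against 71910 and 81324 in WT. The part of genome 2 depletion in the level of Aqp1 was not tested.

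The other falls on chromosome 6 were smaller. The bin of Asns, 6 to 8 Mb, had 315 and 312 CPM in WT and 130 and 122 CPM under Pygo1 (log2 change -1.28 ± 0.2 in edgeR). Asns (7675169 to 7693254), which makes asparagine, fell by 1.89 ± 0.32 on the log2 scale (edgeR adjusted p = 0.0393) and was also at 78.3 to 90.1 CPM in the Rlim-labelled and first Stc1-labelled libraries and at 44.7 CPM in the second, against 191 and 194 CPM in WT. The bin at 4 to 6 Mb, with the neuronal scaffold gene Ppp1r9a, had 104 and 92.2 CPM in WT and 59.6 and 57.6 CPM under Pygo1. Under the Rlim label the bins of Fkbp9, 56 to 58 Mb, and of March8, 116 to 118 Mb, fell by 0.61 ± 0.1 and 0.6 ± 0.08 on the log2 scale. March8, a ubiquitin ligase gene, held the most reads there, and the bin had 441 and 427 CPM in WT and 275 and 270 CPM under Rlim, below all 6 other libraries. The thin exception is the bin at 48 to 50 Mb of chromosome 19, with 27 to 36 reads in WT and 5 in each Rlim-labelled library, which is not among the 224.

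Bins that rose under the Pygo1 label lie on all of chromosomes 3, 5 and 6. At 106 to 108 Mb of chromosome 3 the bin had 993 and 1010 CPM in WT and 1750 and 2700 CPM under Pygo1 (log2 change 1.19 ± 0.19, edgeR adjusted p = 0.0395). Csf1 (107741048 to 107760469), the growth factor of macrophages, had the most reads in it: 422 and 448 CPM in WT, 961 and 1800 CPM under Pygo1. Csf1 RNA in the other 4 libraries, 593 to 813 CPM, lay between the 2 groups. The bin of Srsf11, a splicing factor gene, at 158 to 160 Mb rose from 301 and 276 to 943 and 805 CPM. The bin at 90 to 92 Mb of chromosome 5, with Parm1 (91517615 to 91626894), a mucin-like membrane protein gene, had 904 and 869 CPM in WT and 2810 and 1830 CPM under Pygo1. It also holds members of the CXC chemokine cluster. At 6 to 8 Mb of chromosome 5 the bin of Steap4, a metalloreductase gene, rose under both Pygo1 and Rlim, but its 68 and 85 allele reads in WT leave it out of the 224. The bin of Gxylt2, a xylosyltransferase gene, at 100 to 102 Mb of chromosome 6 had 308 and 284 CPM in WT and 505 and 444 CPM under Pygo1. The genome 1 share of the Csf1 bin was 78.2 and 78.8% in WT and 98.7 and 98.9% under Pygo1, and that of the Gxylt2 bin 69.2 and 69.5% against 95.9 and 99.4%. The Parm1 bin had 82.6 and 82.3% in WT against 89 and 97.9%. The Srsf11 bin was near 100% in WT already, at 99.2 and 99.5%.

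Under the Rlim label 7 of the 8 bins that rose lie between 24 and 78 Mb of chromosome 5 and are among the 224, all before the share break of Igfbp7. Their log2 changes ran from 0.48 ± 0.07 to 0.74 ± 0.09. The highest, 72 to 74 Mb, had 407 and 387 CPM in WT, 641 and 619 CPM under Rlim and 354 to 418 CPM in the other 4 libraries. Fryl (73019987 to 73256619), a gene related to the furry protein of flies, held the most reads there and rose by itself (log2 change 0.83 ± 0.12, edgeR adjusted p = 0.0358). The bin of the anion exchanger gene Slc4a2, 24 to 26 Mb, had 1510 and 1580 CPM in WT and 2230 and 2290 CPM under Rlim. The single Stc1 call was the bin at 14 to 16 Mb of chromosome 5 (log2 change -1.33 ± 0.14, edgeR adjusted p = 0.0256), led by the guidance factor gene Sema3e, and its direction turned when Sema3e was left out.

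**Figure D2:**
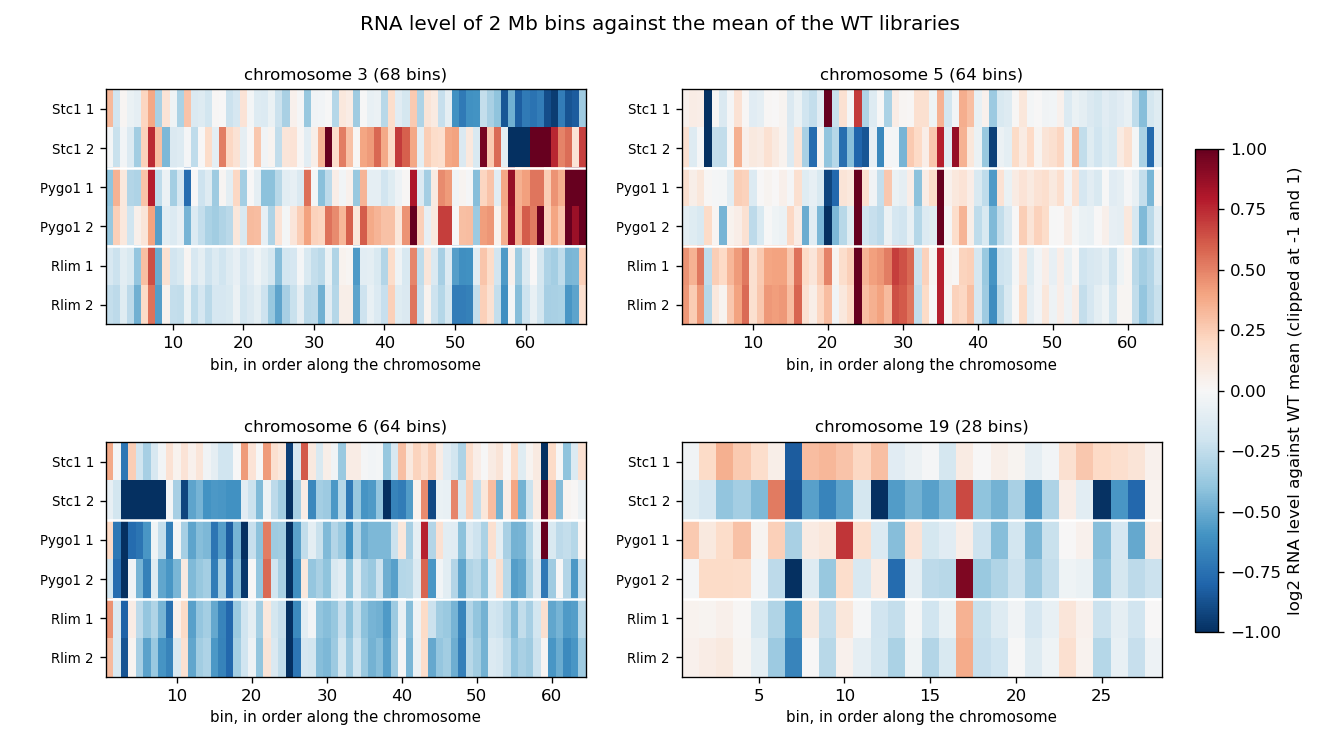
Log2 difference of summed total CPM from the mean of the 2 WT libraries (colour, limited to -1 and 1) in the 224 bins of chromosomes 3, 5, 6 and 19 for the 6 knockout-labelled libraries. Chromosome 6 is mostly below 0 in the Pygo1- and Rlim-labelled rows and in the second Stc1-labelled row, and the proximal part of chromosome 5 is above 0 in both Rlim-labelled rows.

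In bins with a share well above WT, total RNA was on median lower than in WT and genome 1 RNA higher. In the first Pygo1-labelled library 73 bins had a share over 20 points above WT, on chromosomes 3, 6 and 19. Their median log2 difference in RNA from WT was -0.295, and 60 of the 73 were below WT. The second Pygo1-labelled library had 134 such bins on all 4 chromosomes, with a median of -0.195 and 101 bins below WT. The Rlim-labelled libraries had 47 each, all on chromosome 6, with medians of -0.364 and -0.363 and with 43 and 44 below WT. If genome 1 RNA had stayed as in WT and genome 2 RNA had gone, the median would have been the log2 of the WT genome 1 share, which is -0.514, -0.494 and -0.52 for these sets. The measured medians were all nearer to 0 than that. The reads of genome 1 alone had medians of 0.196 and 0.293 in the Pygo1-labelled libraries and 0.103 and 0.109 in the Rlim-labelled ones. Bins within 3 points of the WT share had genome 1 medians of 0.106 and 0.386 in the Pygo1-labelled libraries, over 45 and 25 bins. In the Rlim-labelled ones those medians were -0.13 and -0.132, over 75 and 71 bins. Of the Pygo1 bins within 3 points, 21 and 22 lie on chromosome 3, and 23 and 2 on chromosome 5. Their median WT share was 87.71 and 96.38%, so the share of many could hardly rise. In the bins raised by over 20 points it was 70.01 and 71.03%. Higher genome 1 RNA under Pygo1 was thus also found without a raised share, but in bins unlike the raised ones in WT share and chromosome.

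The RNA level followed the share only loosely over bins, and in opposite directions for different labels. Over 224 bins Pearson's r between the share difference and the log2 RNA difference was -0.353 and -0.452 (Spearman's rho -0.422 and -0.389) in the Pygo1-labelled libraries. It was -0.296 and -0.279 (rho -0.208 and -0.179) in the Rlim-labelled libraries and 0.332 and 0.335 (rho 0.211 and 0.31) in the Stc1-labelled ones. Bins of a library share its depth and scaling, and all libraries share the WT baseline, so these values are descriptions. Within chromosome 5 the Rlim-labelled libraries had r of 0.666 and 0.633, opposite in sign to their value over all 4 chromosomes. In the second Stc1-labelled library 51 bins had a share over 10 points below WT, 41 of them on chromosome 6. Their median log2 RNA difference was -0.446, with -0.915 for genome 1 reads and 0.119 for genome 2 reads, so there the reads of genome 1 were low. In the first Stc1-labelled library the r of 0.636 within chromosome 6 went with a rho of 0.233. A single bin lies far out there: 138 to 140 Mb, where the detoxifying enzyme gene Mgst1 held 99.8% of the total counts, had 112 allele reads and a share of 25% in that library, against 410 and 448 reads and 61.46 and 59.82% in WT.

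**Figure D3:**
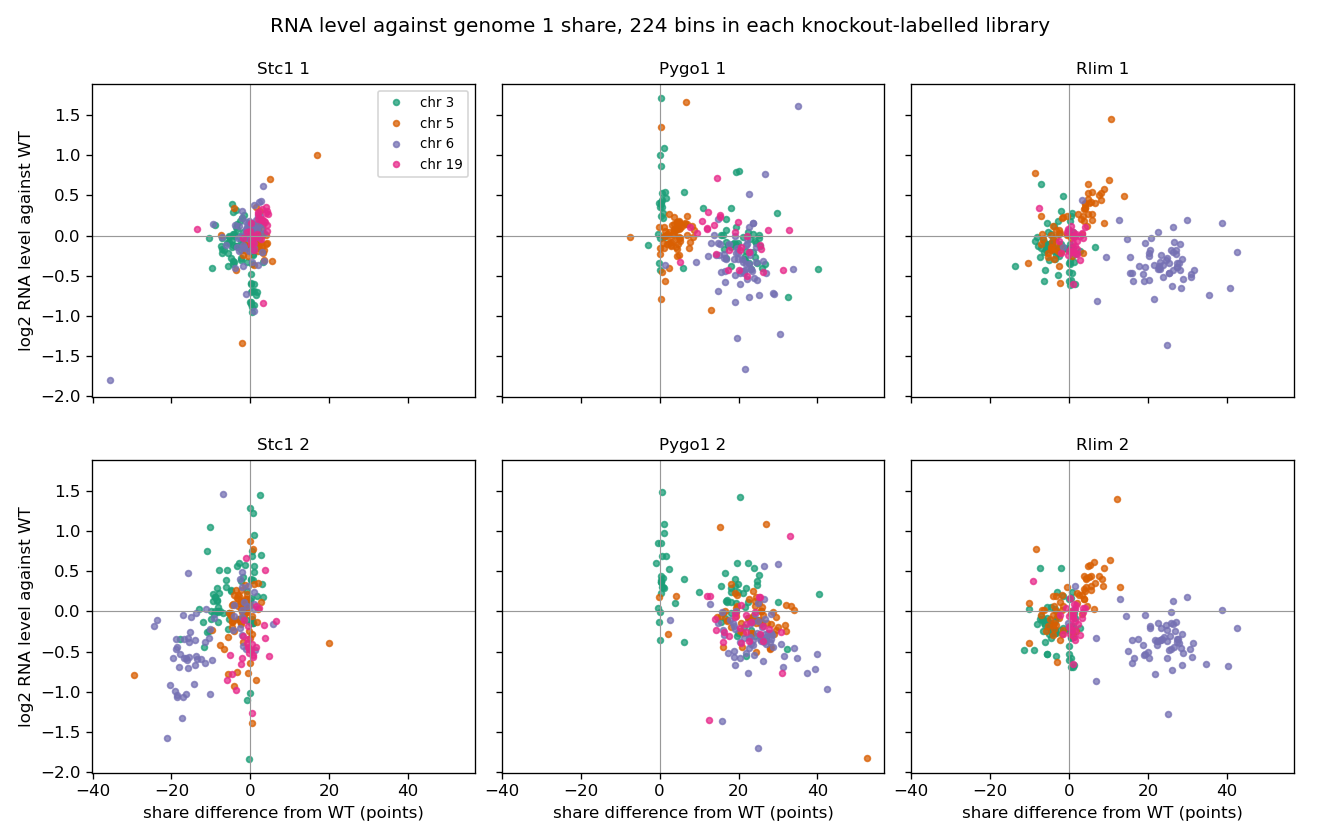
Log2 RNA difference from the WT mean (vertical) against the difference in genome 1 share from the WT mean in percentage points (horizontal) for the 224 bins, 1 panel for each of the 6 knockout-labelled libraries, coloured by chromosome. In the Rlim-labelled panels the chromosome 6 bins form a group over 20 points to the right and mostly below 0, and in the second Stc1-labelled panel the chromosome 6 bins lie to the left and below 0.

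Medians over genes were also taken between the breaks. On chromosome 6 after the Rlim break, 539 genes had a median log2 difference of -0.365 and -0.378 in the Rlim-labelled libraries, with 467 and 464 genes below WT. Their genome 1 reads had medians of 0.096 and 0.09, against a log2 WT share of -0.485. The Pygo1-labelled libraries had -0.34 and -0.328 for total RNA and 0.059 and 0.116 for genome 1. These 4 libraries were alike within 0.05 for total RNA, though the Pygo1-labelled libraries had no share break on this chromosome. The median of WT genome 2 reads left was 15.7% in the first Pygo1-labelled library and 0.791% in the second. It was 0.87 and 0.96% in the Rlim-labelled libraries.

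Chromosomes 3 and 5 gave values closer to the WT level. The 412 genes of chromosome 3 before the WT step had medians of -0.08 and 0.21 in the Pygo1-labelled libraries, with a median gene share of 99.72 and 99.81% against 75.2% in WT. Genome 1 reads of these genes had a median of 0.63 in the second library, the highest of the depleted stretches. On chromosome 5 the second Pygo1-labelled library had -0.059 over 746 genes, with 0.404 for genome 1 reads. The first Pygo1-labelled library, without depletion there, had 0.006.

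The distal stretch of chromosome 3, where genome 2 was nearly absent in WT too, moved without a change of share. Over its 145 genes the median log2 RNA difference was 0.339 and 0.405 in the Pygo1-labelled libraries, with 107 and 125 genes above WT. It was -0.515 in the first Stc1-labelled library, with 132 genes below WT, and 0.29 in the second. The Rlim-labelled libraries had -0.154 and -0.234. In edgeR 7 of 255 tested genes of this stretch rose under Pygo1 and none fell (2.75%, against 2.35% over all genes), so few single genes of this stretch passed. On chromosome 19 the stretch between Rhod and Plcb3, where the second Pygo1-labelled library was least depleted, had 0.276 over 90 genes, against -0.13 over the 31 genes before it and -0.106 over the 100 genes after it.

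**Figure D4:**
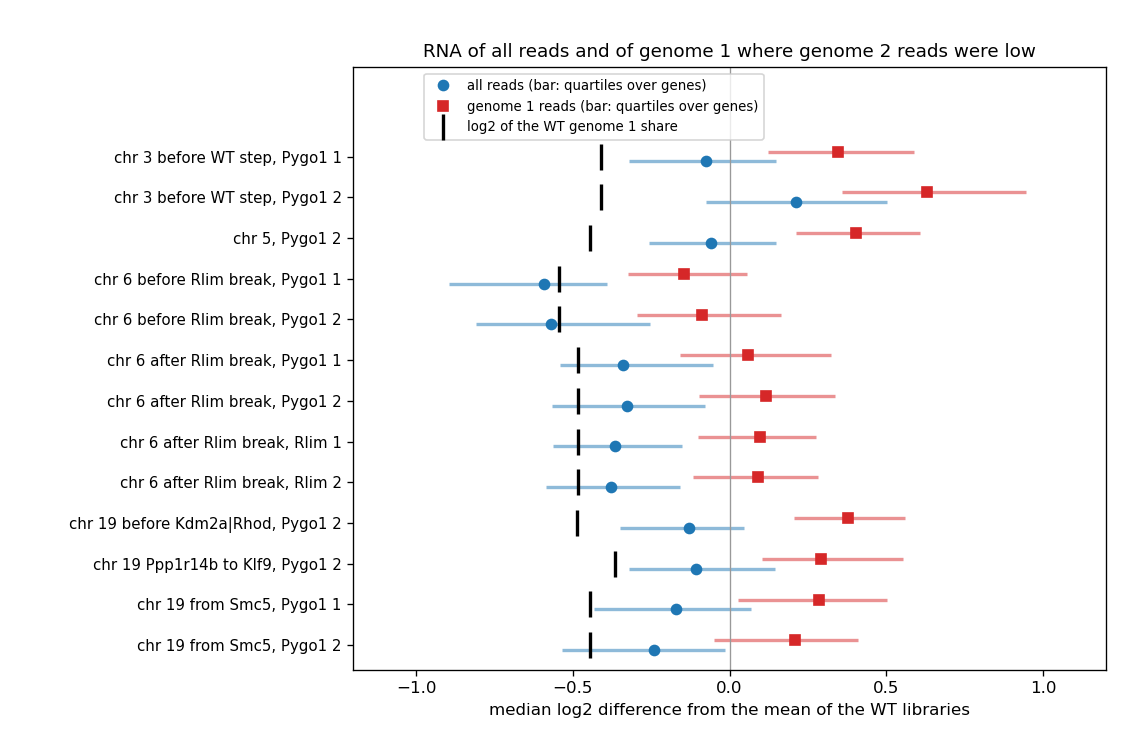
Median log2 difference from WT over the genes of each stretch for total reads (circles) and genome 1 reads (squares), with bars for the quartiles over genes, and a black tick at the log2 of the WT genome 1 share, the value total RNA would have with genome 1 unchanged and genome 2 gone. Circles lie right of the tick and squares above 0 in every row but the 2 of the proximal stretch of chromosome 6, where they had -0.593 and -0.57 for total reads and -0.146 and -0.088 for genome 1 reads.

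Some steps in RNA level lay in or near steps in share, and others lay elsewhere. The gene fit on log2 RNA difference gave 12 RNA breaks, of which 9 returned with a limit of 10 CPM and 7 with the penalty doubled. One lay in the same gap as a share break: between Klf9 and Smc5 on chromosome 19 the median of the first Pygo1-labelled library went from 0.13 to -0.17 as its share difference went from 11.60 to 22.96 points. Another pair lay inside the gap of a share break. In both Rlim-labelled libraries the level on chromosome 5 went from 0.39 to -0.09 and from 0.38 to -0.07 between Igfbp7 and Rpl7-ps7. Rpl7-ps7, a pseudogene, lies within the gap between Igfbp7 and Cenpc1. In the second Pygo1-labelled library the level on chromosome 19 went from 0.15 to -0.19 between Nudt22 and Trpt1, just past the share break of Plcb3 and Ppp1r14b. In the first Stc1-labelled library it went from -0.04 to -0.58 on chromosome 3 between Sass6 and Mfsd14a (116.63 Mb). That is just past a share break of 4.96 points, which ends at A930005H10Rik (115.88 Mb). This share break has 19 genes after it. It returned with 100 allele reads as the minimum but was lost with 20 reads and with the penalty doubled. In the second Stc1-labelled library it went from -0.53 to -0.02 on chromosome 6 between Srgap3 and Thumpd3, just past Lmcd1. The largest RNA steps had no share break near them. In that library chromosome 3 went from 0.31 to -1.33 between Tet2 and Cenpe and back up to 1.03 between Rap1gds1 and Pdlim5. Both gaps lie on the distal side, where most genes had almost no genome 2 RNA in WT and were left out of the share fit. That fit had 19 genes from A930005H10Rik on, so a share break could hardly be called there. Its absence does not show that RNA level and share moved apart. Further RNA steps had no share break near them either. In the first Pygo1-labelled library chromosome 3 went from -0.065 to 0.572 between Papss1 and Aimp1, on the distal side too. The same limit of the share fit holds for this step. Chromosome 6 of that library went from -0.443 to -0.181 between Zxdc and C030015A19Rik. In the second, chromosome 3 went from -0.197 to 0.351 between Nhlrc3 and Proser1. In the second Stc1-labelled library it went from 0.035 to 0.309 between Fam160a1 and Sh3d19. A step counted as returned if a break lay within 2 Mb of it. The Klf9, Nudt22, Zxdc and Fam160a1 steps were lost at the doubled penalty, and the Nhlrc3 step at 10 CPM. At 10 CPM the nearest breaks lay 6.22 and 3.68 Mb from Rpl7-ps7 in the first and second Rlim-labelled libraries, so neither counted. At the doubled penalty these distances were 10.1 and 0.0 Mb.

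Depletion was nearly complete for most genes in most depleted stretches, but not in the first Pygo1-labelled library on chromosome 6. The percent of WT genome 2 reads left had a median of 1.15 and 0.965% over 325 genes of chromosome 3 in the Pygo1-labelled libraries. It was 0.751% over 612 genes of chromosome 5 in the second of them. On chromosome 6 after the Rlim break it was 0.87 and 0.96% in the Rlim-labelled libraries and 0.791% in the second Pygo1-labelled library over 427 genes, but 15.7% in the first, where 0 genes were under 1%. In bulk RNA, fewer cells with genome 2 RNA and less genome 2 RNA per cell cannot be told apart. On chromosome 19 after Smc5 the Pygo1-labelled libraries had 1.685 and 1.434% left over 166 genes.

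After the Rlim break, the end of chromosome 6 had more genome 2 reads left than the part before it in all 4 depleted libraries. Whether the reads left were assigned to the right genome was not tested. From 14 to 124 Mb, over 375 genes, the median left was 13.7% in the first Pygo1-labelled library, 0.571% in the second and 0.74 and 0.592% in the Rlim-labelled ones. From 124 Mb on, over 107 genes, it was 28.5, 11.7, 9.28 and 10.1%. The split at 124 Mb was chosen after the values were seen. High bins there were 136 to 138 Mb, with 56.6, 34.9, 39.8 and 37.8% left, and 142 to 144 Mb, with 44.1, 39.0, 38.4 and 38.3%, and 146 to 148 Mb, with 49.7, 39.5, 36.6 and 42.9%. Proximal bins had more left in some libraries: 6 to 8 Mb had 29.6% left in the second Pygo1-labelled library and 60.5 and 59.3% in the Rlim-labelled ones, which are not depleted there. The second Pygo1-labelled library and both Rlim-labelled libraries thus had values within 7 points of each other in each of the 3 distal bins.

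A few genes carried many of the genome 2 reads that were left, and several of them had like shares in separate libraries. Whether these reads were assigned to the right genome was not tested. The 10 genes with the most remaining reads held 27.8 to 95.6% of them, by stretch and library. These genes were chosen after their values were seen. On chromosome 3 Hdgf (87906321 to 87916132), a growth factor gene, had a genome 1 share of 52.6 and 52.7% in WT and 74.4 and 74.7% in the Pygo1-labelled libraries. S100a10, which encodes an annexin partner, had 41.8 and 43.2% in WT and 58.3 and 58.4% there. On chromosome 6 Capg (72544391 to 72562983), an actin capping gene, had 55.9 and 54.8% in WT and 67.1 to 68.3% in the 4 depleted libraries. Tnfrsf1a (125349362 to 125362484), a tumour necrosis factor receptor, had 61.9 and 63.3% in WT and 81 to 85.1% in those 4. On chromosome 19 Actr1a (46376811 to 46395748), of dynactin, had 48.8 and 49.7% in WT and 72.1 and 72.4% in the Pygo1-labelled libraries. On chromosome 5 Rplp0 (115559467 to 115563727), a ribosomal protein gene with many processed copies, had 56.6 and 56.1% in WT and 80.5% in the second Pygo1-labelled library. In the 5 of these genes other than Rplp0 the libraries with a depleted chromosome lay within 5 points of each other, well below 100%. Other carriers differed. Cpt1a, of fatty acid import into mitochondria, held 88.4% of the remaining reads of the proximal stretch of chromosome 19 in the second Pygo1-labelled library, with a share of 70.4% against 68.2% in the first WT library. Fads3, a desaturase gene, held 66.46% of them between Ppp1r14b and Klf9, with 59.8% against 59.5%. These 2 genes stood at the WT share inside depleted stretches.

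Some genes read almost wholly from genome 2 in WT had little RNA left where the chromosome was depleted. Of genes with at least 90% of WT allele reads from genome 2, 7 lie on chromosome 3, 10 on chromosome 5, 15 on chromosome 6 and 3 on chromosome 19. The pseudogene Rps10-ps1 of chromosome 3, 1 of the 7, had 54.4 and 63.4 CPM in WT and 45.7 and 46.6 CPM under Pygo1, and near copies make its place uncertain. Sgce (6: 4674350 to 4747207), an imprinted gene that uses the paternal copy, had 855 and 763 counts in WT, 650 and 718 under Stc1, 98 and 0 under Pygo1 and 646 and 604 under Rlim. It lies before the Rlim break, and the Rlim-labelled libraries kept it. Against the limit that a count of 0 allows, 3 counts, Sgce was at least 253-fold lower in the second Pygo1-labelled library than in WT. Its neighbour Peg10 (4747306 to 4760517), an imprinted retrotransposon-derived gene named after its values were seen, had 497 and 568 counts in WT and 123 and 0 under Pygo1, at least 166-fold lower in the second. Peg10 stood at 1144 to 1831 counts in the Stc1- and Rlim-labelled libraries, above WT.

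Ociad2, Sgcb, Nxpe5 and Kcnd3, of the same kind, were lowest in libraries where their chromosome was depleted. On chromosome 5 Ociad2, Sgcb and Nxpe5, of which Sgcb encodes a sarcoglycan of the muscle membrane complex, had 1, 4 and 1 counts in the second Pygo1-labelled library. In WT the counts were 419 and 463 for Ociad2, 409 and 392 for Sgcb, and 1707 and 1660 for Nxpe5. The first Pygo1-labelled library, not depleted there, had 321, 311 and 1166 counts. Nxpe5 was below WT in the other libraries without depletion there as well, with 1377 and 386 counts under Stc1 and 789 and 803 under Rlim. Kcnd3 (105452330 to 105674002) of chromosome 3, a potassium channel gene, had 965 and 959 counts in WT and 4 and 99 under Pygo1, with 752 or more in the other 4 libraries. Each Pygo1-labelled library had 2 genome 2 reads of Kcnd3. Genome 1 reads numbered 0 in the first and 75 in the second, against 60 and 58 in WT, so the 2 depleted libraries differed in genome 1 reads.

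Gpnmb (6: 49036546 to 49070929), a membrane glycoprotein of pigment cells and macrophages, had opposite allele shares in WT and in the depleted libraries. Its level was 248 and 249 CPM in WT with a genome 1 share of 2.1 and 1.8%. Under Rlim it was 38.2 and 35.6 CPM with 90.8 and 90% (log2 change -2.73 ± 0.44, edgeR adjusted p = 0.0424). Under Pygo1 the shares were 76.1 and 93.1%, yet the levels were 345 and 193 CPM, on both sides of WT. Gpnmb RNA under Pygo1 thus came largely from genome 1, a copy that gave few reads in WT.

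Several genes of low genome 1 share in WT fell under the labels with a depleted chromosome. Gstm4 (3: 108040408 to 108044894), a glutathione transferase gene in a cluster of near copies and so uncertain, had 15.6 and 16.8 CPM in WT with a share of 7.8 and 5.6%. It had 0.126 and 0.0826 CPM under Pygo1 (log2 change -7.24 ± 0.34, edgeR adjusted p = 0.000499) and 14.6 to 22.9 CPM in the other 4 libraries. Gstk1 (6: 42245935 to 42250447), another glutathione transferase gene, had 19.2 and 20.1 CPM in WT with 17 and 21.1%, and 0.0783 and 0.0257 CPM under Rlim (log2 change -8.5 ± 1.05, edgeR adjusted p = 0.0245). Its levels under Pygo1 were 2.18 and 0.317 CPM. Cxcl12 (6: 117168535 to 117181367), a chemokine of stromal cells, had 16.1 and 15.1 CPM in WT with 22.7 and 24.2%. It fell by 3.68 ± 0.53 under Pygo1 and by 6.95 ± 0.66 under Rlim on the log2 scale in edgeR, to 1.43 CPM or less in all 4 libraries. Crtac1 (19: 42283035 to 42431783), a cartilage matrix protein gene, had a share of 40.2 and 38.4% in WT and fell under Pygo1 from 23.8 and 26.1 CPM to 0.214 and 0.509 CPM (log2 change -6.1 ± 0.61, edgeR adjusted p = 0.00984). Rassf4 (6: 116633008 to 116673952), a Ras-association protein gene, had 39.2 and 38.7 CPM in WT and 1.19 and 1.12 CPM under Rlim (log2 change -5.06 ± 0.57, edgeR adjusted p = 0.02).

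In the gene fit 21, 94 and 72 genes of the 4 chromosomes were called for Stc1, Pygo1 and Rlim, of 3731 tested. The share called over all 17839 genes was 0.577, 2.35 and 1.4%. Pygo1 calls were 53 up and 41 down, and Rlim calls 32 up and 40 down. Over all genes 0.286% rose and 0.291% fell under Stc1, 1.54 and 0.807% under Pygo1, and 0.785 and 0.617% under Rlim. On chromosome 6 after the Rlim break, the Rlim calls were 1 up and 24 down of the genes tested there (2.83%), and the Pygo1 calls 9 up and 14 down (2.6%). On chromosome 5 the Rlim calls were 22 up and 6 down. Of 29 genes named for Pygo1, Gstm4 alone passed again without either WT library, and of 22 named for Rlim none did. Without the first or second Pygo1-labelled library 15 and 12 of the 29 passed, and without either Rlim-labelled library 1 and 2 of the 22. Why these calls were lost was not tested.

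Some called genes changed the same way under several labels. Cxcl1 and Cxcl5 of chromosome 5, chemokines that attract neutrophils, rose under all 3 labels. Cxcl5 stood at 22.6 and 19.7 CPM in WT and at 170 to 418 CPM in the 6 knockout-labelled libraries (log2 change 3.51 ± 0.28, 3.52 ± 0.28 and 4.32 ± 0.3 for Stc1, Pygo1 and Rlim). The second Pygo1-labelled library, depleted on that chromosome, had the lowest of the 6 values. Genome 2 reads of Cxcl5 were not depleted in it: they numbered 1727, against 356 in each WT library. The genome 1 share of Cxcl5 was 73.8% there and 57.6% in the first WT library. Aldh18a1 (19: 40550257 to 40588463), of proline synthesis, stood at 372 and 397 CPM in WT and 166 to 232 CPM elsewhere, and fell under Pygo1 and Rlim. It lies in the depleted stretch of the Pygo1-labelled libraries but not of the Rlim-labelled ones. Wls (3: 159839672 to 159938664), which carries Wnt proteins to the surface, stood at 103 and 98.2 CPM in WT and at 157 to 174 CPM under Pygo1 and Rlim, where it rose.

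Of the lists of genes by role or cluster, the chemokine and guanylate-binding protein clusters had the highest medians. Beside the counts below, 0.286, 1.54 and 0.785% of all genes tested rose under Stc1, Pygo1 and Rlim, and 0.291, 0.807 and 0.617% fell. In the CXC chemokine cluster of chromosome 5, 8 members were tested and 2, 4 and 2 rose under Stc1, Pygo1 and Rlim, with median log2 changes of 3.6, 3.47 and 2.39 against medians of 0.014, -0.001 and 0.006 over all genes. Of 11 guanylate-binding proteins, interferon-induced GTPases, 3 rose under Pygo1 and 1 under Rlim, among them Gbp9 under Pygo1 from 6.3 and 5.94 CPM to 26.1 and 20.8 CPM. Near copies in this family make single members uncertain. Among 30 growth and tumour suppressor genes, 1 rose and 1 fell under Stc1, 1 rose and 2 fell under Pygo1, and 1 rose under Rlim. Fosl1, an AP-1 subunit that overlaps another gene, rose under all 3 labels, and Fgfr3, a growth factor receptor, fell under Stc1 and Pygo1. The 21 matrix and mesenchymal genes had no call except 2 that fell under Rlim, and the 11 S100 genes had 1 that rose under Pygo1 and 1 that fell under Rlim. Of 7 Gstm genes, Gstm4 alone was called. None of 8 imprinted genes of chromosome 6, 11 Hoxa genes and 7 fatty acid desaturases was called by edgeR. The imprinted genes had medians of -0.08, -0.54 and -0.2, the Hoxa genes 0.02, -0.24 and -0.08, and the desaturases -0.56, -0.42 and -0.67.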

How the data were processed

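The table deposited by the authors gives raw counts by Ensembl gene ID, in 3 columns for each of 8 libraries: all reads, reads of genome 1 and reads of genome 2. HISAT2 2.0.5, Cufflinks, featureCounts and mm10 were used, per the submitters' processing notes, with no role or order. The tool that split reads by genome, the annotation and the strand setting are not given in the sources used here. Reads aligned to a reference of 1 parent can favour that parent, so shares were compared between libraries.

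Of 49670 genes, 49411 matched GENCODE M21 for symbols and places. Total counts per bin and per gene were tested in edgeR 4.0.16 (R 4.3.3; TMM, quasi-likelihood, default filter, 1 mean per group over all 8 libraries, adjusted p under 0.05); CPM use the TMM factors. Shares, breaks, correlations and medians are descriptions (Python 3.11.15). A bin break needed 3 bins and 15 points, a gene break 8 genes and 4 points, or 0.2 log2 for RNA at 3 CPM or more with 0.5 CPM added; 1 read was added to allele counts before logs. Scripts were checked on simulated data. The bins, lists and rules were chosen with earlier results of these data known. Named genes were those beside breaks, the largest gene of each described bin, up to 2 called genes per label, chromosome and direction, up to 4 members per list, and up to 5 genes per chromosome read from genome 2 in WT. The alternatives were another scaling, filter, tool, bin size, origin or read limit, and each library left out; single-gene fits, stretches, remaining genome 2 reads, Peg10 and the cell markers were chosen after the data were seen.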

Additional observations from a re-analysis of the deposited data

How the results depend on the processing

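Bin calls for Stc1, Pygo1 and Rlim (1, 8 and 12) were 12, 39 and 39 with DESeq2 1.42.0, 0, 48 and 169 with the 2 compared groups alone, and 0, 0 and 1 with a replicate block. The largest gene left out gave 0 for Stc1 and 4 for Pygo1, 4 Mb bins 0 for Stc1, 1 Mb bins 14 and scaling on the other chromosomes 13 for Pygo1. Leaving out 1 library gave 0 to 108, 0 to 86 and 0 to 78. Gene calls (21, 94 and 72) were 154, 396 and 352 with DESeq2, 68, 209 and 161 with no filter, 0, 437 and 1963 with the groups alone, and 2, 29 and 7 with the replicate block. Leaving out 1 library gave 0 to 1033, 2 to 924 and 0 to 804. Replicate numbers did not clearly pair the libraries (correlations of deviations -0.208 to 0.353 between groups, highest for WT and Rlim). The Stc1 bin at 14 Mb of chromosome 5 went to 2.81 without its largest gene (edgeR adjusted p = 0.365). Of the other alternatives for called bins and named genes, 680 kept their call and 478 lost it.

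WT breaks (10) were 2 with 500 reads or 4 Mb bins, 18 with 1 Mb bins, 6 with the largest gene left out or the penalty doubled, and 4 by gene. Stc1 breaks (0) were 1 with 50 reads, 10 as a ratio and 4 by gene. Pygo1 breaks (2) were 4 with 50 reads, 1 Mb bins or the largest gene left out, 20 as a ratio and 5 by gene. Rlim breaks (2) were 4 with 50 reads or 1 Mb bins, 7 as a ratio and 7 by gene. With 95% as the limit of near-absence, the share of bins was 7.6% in the second WT library and 41.1 and 78.6% for Pygo1. The share under Rlim (78.07%, mean of both library medians) was 78.93% with 1 Mb bins, 78.49% with 4 Mb bins, 79.22% with shifted bins and 77.82% with the largest gene left out.

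The mean r for Stc1 (0.333) was 0.357 with 50 reads, 0.229 with 500, 0.212 with 1 Mb and 0.261 with 4 Mb bins, 0.214 with shifted bins, 0.337 with genes placed by transcription start, 0.227 with the largest gene left out, 0.308 with medians over genes and 0.319 to 0.341 without 1 WT library. For Pygo1 (-0.403) it was -0.323 with 50 reads. For Rlim (-0.287) it was -0.182 with 50 reads, -0.335 with 1 Mb bins, -0.345 with shifted bins, -0.349 with the largest gene left out and -0.336 with medians over genes. The genome 1 median of Pygo1 on chromosome 19 (0.26) was 0.31 with shifted bins. That of Rlim on chromosome 6 (0.09) was 0.09 with 500 reads or transcription starts, 0.08 with 1 Mb bins, 4 Mb bins or scaling on the other chromosomes, 0.06 with shifted bins, 0.05 with the largest gene left out, 0.11 with RLE scaling and 0.07 to 0.11 without 1 WT library. Causes of these differences were not tested. Depth limits shares in the thinnest bins, whose intervals span several points.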
